A study of Arabidopsis thaliana with 12 samples.

Results

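The morning-phased clock genes of Arabidopsis described here are CCA1 (AT2G46830), LHY (AT1G01060), RVE8 (AT3G09600), PRR9 (AT2G46790), PRR7 (AT5G02810), LNK1 (AT5G64170) and LNK2 (AT3G54500), 7 of the 33559 genes in the expression table. They were chosen by gene identifier as the components of the circadian oscillator whose transcripts are known to peak between dawn and midday. Their transcripts were measured by RNA sequencing in whole 12-day-old seedlings of the Col-0 wild type and of smeb-1 and smeb-2, lines in the Col-0 background with a mutated SmEb gene, which codes for an Sm core protein of the particles that carry out splicing. Each line was left on salt-free medium or exposed to 200 mM NaCl for 6 h, which gave 6 groups of 2 libraries. The titles, the treatment field and the columns of the table name salt or Na for the treated samples, while their description field reads Cd; they are called salt here. The nature of the smeb mutations is not given in the labels.

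The time of harvest limits every comparison of salt with control. The protocol allows 0 or 6 h for the controls and their treatment field gives 6 h, so it is uncertain whether controls were taken at the start or at the end of the treatment, and salt and time of day cannot be told apart for genes that cycle. Lines within a treatment carry the same labelled time of 6 h, but the labels do not show that their controls were harvested together. All 7 genes passed the filter of an FPKM (fragments per kilobase of transcript, scaled to the size of the library) of at least 1 in at least 2 libraries, LHY through its salt libraries alone. SmEb (AT2G18740) checked the labels: its mean FPKM without salt was 57 in Col-0, 26.8 in smeb-1 and 5.58 for smeb-2. The 2 libraries of a group, named 0 and 1 after the digit that ends their column, differed by a median of 0.0847 to 0.0998 on the log2 scale, but by 0.167 in Col-0 salt, so results that use that group are less certain than their shared SE shows. Depth is known only in relative terms, from 0.82 to 1.73. Nothing says that the libraries of a group were grown apart, so p-values measure the spread between these libraries, which may be technical. Leaf and root markers were detected in every library (16 of 16 above 0), as whole seedlings require.

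The plant clock is a loop of repressors that follow each other through the day. CCA1 and LHY, related MYB transcription factors that accumulate around dawn, repress genes of the evening. The pseudo-response regulators PRR9 and PRR7 follow in the morning and around midday and in turn repress CCA1 and LHY. RVE8, another MYB factor, acts the other way: it recruits the coactivators LNK1 and LNK2 and activates genes of the afternoon and evening, among them PRR5 and TOC1. Splicing factors are known to alter the period of this clock.

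The genes lie on 4 of the 5 chromosomes (TAIR10 coordinates): CCA1 at chr2:19245591-19248915 and PRR9 at chr2:19232607-19235179, both on the plus strand, LHY at chr1:33365-37871 on the minus strand, RVE8 at chr3:2946239-2949017 on the plus strand, LNK2 at chr3:20175370-20179070, PRR7 at chr5:637681-642030 and LNK1 at chr5:25672466-25676823, these on the minus strand. The 300 bases before each annotated start, from RefSeq's TAIR10.1, were searched on both strands for motifs of clock and light control. The G-box CACGTG, which light-signalling and other bHLH and bZIP factors bind, was found before CCA1, LHY, PRR9 and PRR7 (4 of 7), and in 7.09% of 27443 promoters of protein-coding genes. In each of these 4 the G-box stood in the longer CACGTGTC, a string singled out after the sequences were seen and found in 2.26% of promoters. The 4 promoters are shown because they hold that shared string; capitals mark every motif match.
CCA1: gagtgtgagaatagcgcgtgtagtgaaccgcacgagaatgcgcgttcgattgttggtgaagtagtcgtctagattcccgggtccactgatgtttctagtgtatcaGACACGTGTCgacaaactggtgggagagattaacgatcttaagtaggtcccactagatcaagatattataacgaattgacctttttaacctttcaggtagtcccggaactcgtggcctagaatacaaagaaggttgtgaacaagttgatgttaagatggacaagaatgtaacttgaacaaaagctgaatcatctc
LHY: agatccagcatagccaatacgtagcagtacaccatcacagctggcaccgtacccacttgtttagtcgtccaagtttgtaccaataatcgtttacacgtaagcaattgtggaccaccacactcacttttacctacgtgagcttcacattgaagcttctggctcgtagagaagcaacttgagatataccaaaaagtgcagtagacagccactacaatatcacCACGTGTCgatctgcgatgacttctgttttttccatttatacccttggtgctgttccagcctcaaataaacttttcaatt
PRR9: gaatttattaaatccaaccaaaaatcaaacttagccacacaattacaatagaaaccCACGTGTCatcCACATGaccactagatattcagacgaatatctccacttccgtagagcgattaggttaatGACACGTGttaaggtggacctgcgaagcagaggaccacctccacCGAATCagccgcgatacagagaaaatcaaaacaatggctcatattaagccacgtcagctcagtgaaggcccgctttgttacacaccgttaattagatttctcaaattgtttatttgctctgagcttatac
PRR7: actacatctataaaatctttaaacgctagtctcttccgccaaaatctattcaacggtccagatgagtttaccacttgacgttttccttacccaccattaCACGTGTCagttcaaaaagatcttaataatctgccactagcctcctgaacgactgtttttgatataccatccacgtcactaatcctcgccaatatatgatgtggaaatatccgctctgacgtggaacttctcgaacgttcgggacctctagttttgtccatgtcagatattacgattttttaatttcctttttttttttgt
These windows are chr2:19245291-19245590 (plus strand) for CCA1, chr1:37872-38171 (minus strand) for LHY, chr2:19232307-19232606 (plus strand) for PRR9 and chr5:642031-642330 (minus strand) for PRR7. The first base of the G-box lies 193 bases before the start of CCA1, 80 before LHY, 244 and 172 before PRR9, and 201 before PRR7. The LUX-binding letters GATTCG or GATACG were found before PRR9 and LNK2 (14.3% of promoters), and the HUD element CACATG before the same pair (13.1%). The evening element AAAATATCT (2.79% of promoters) and the CCA1-binding site AAAAATCT (7.94%) had 0 matches in these 7 windows. Matches describe letters and are not evidence of binding. The genes that share CACGTGTC did not move alike with salt: LHY rose and PRR7 fell.

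In untreated seedlings the levels of the 7 genes differed widely, and their order was another one in the salt groups. Salt and time of day cannot be told apart in that change. PRR7 was the most abundant in each untreated line, at a mean FPKM of 76.3 in Col-0, 65.1 in smeb-1 and 69.4 for smeb-2. LNK2 and LNK1 came next in Col-0, at 43.6 and 24.4. PRR9 (4.83), CCA1 (3.46), RVE8 (1.67) and LHY (0.553) were low there. With salt RVE8 became the most abundant, at 5.99 in Col-0, 7.96 in smeb-1 and 8.40 for smeb-2. PRR7 made up 49.3% of the summed FPKM of the 7 genes in untreated Col-0 and 12.5% with salt, while RVE8 went from 1.08% to 25.9%. In smeb-1 the share of RVE8 went from 0.454% to 39%, and in smeb-2 from 0.601% to 36.3%. The sum fell from 154 and 156 FPKM in the Col-0 control libraries to 22.4 and 23.8 with salt. It was between 100 and 111 in the smeb controls and between 19.9 and 23.2 in smeb with salt. The smeb control libraries thus summed to less than those of Col-0, whereas the salt libraries of the lines lay close together.

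**Figure D1:**
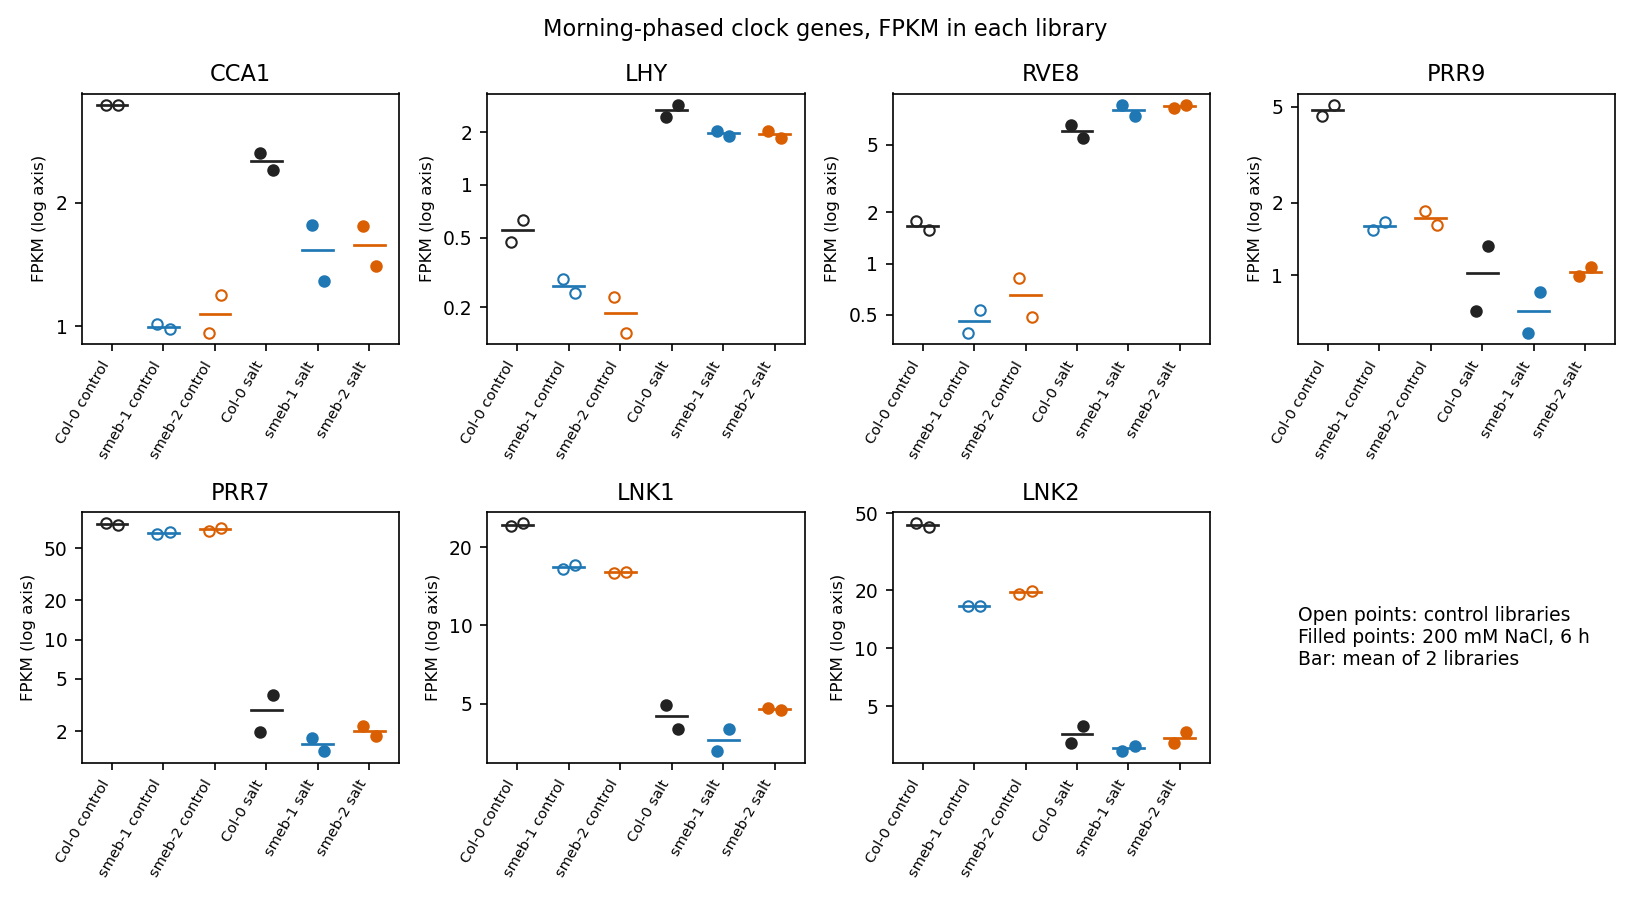
FPKM on a log axis for each of the 7 genes, with 2 libraries a group as points and their mean as a bar. Open points are controls and filled points salt. PRR7, LNK1, LNK2 and PRR9 lie lower with salt, LHY and RVE8 lie higher, and in the controls the Col-0 points lie above those of both smeb lines.

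**Figure D2:**
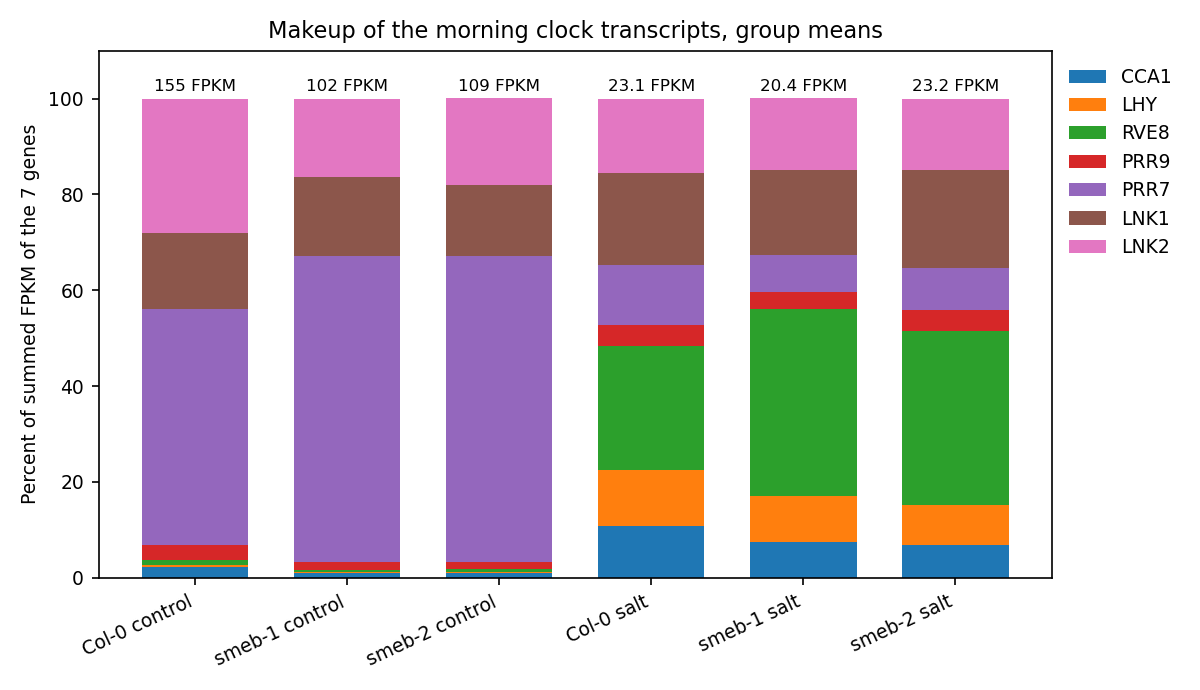
Percent of the summed mean FPKM of the 7 genes held by each gene in each group, with the sum printed above its bar. PRR7 fills 49.3% to 63.9% of the bar in controls, and RVE8 is the largest segment with salt.

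The MYB factors split in their response to salt. LHY was at 0.474 and 0.632 FPKM in the Col-0 control libraries and at 2.45 and 2.86 with salt. In smeb-1 it was at 0.289 and 0.240 without and 2.04 and 1.89 with salt. In smeb-2 it was at 0.229 and 0.143 without and 2.03 and 1.84 with salt. Every salt library thus lay above every control library. LHY entered the test through its salt libraries alone, so the values that follow describe its rise and are not independent support for it. LHY rose by 1.24 ± 0.122 in Col-0 (log2 difference of FPKM + 1 ± SE, limma adjusted p = 1.53e-05), 1.23 ± 0.122 in smeb-1 (adjusted p = 1.95e-05) and 1.31 ± 0.122 for smeb-2 (adjusted p = 1.13e-05). The added 1 compresses so low a gene: the ratio of mean FPKM was 4.80 in Col-0, 7.44 in smeb-1 and 10.4 for smeb-2, and with a pseudocount of 0.1 the differences were 2.08, 2.51 and 2.85.

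RVE8 behaved like LHY in direction. Its Col-0 libraries were at 1.77 and 1.57 FPKM without and 6.49 and 5.49 with salt. In smeb-1 they were at 0.392 and 0.532 without and 8.57 and 7.34 with salt, and in smeb-2 at 0.821 and 0.483 without and 8.24 and 8.55 with salt. The libraries of both mutants lay below those of Col-0 without salt and above them with salt. With salt, limma called RVE8 in neither allele against Col-0 (adjusted p = 0.0696 in smeb-1 and 0.0573 for smeb-2). RVE8 rose by 1.38 ± 0.132 in Col-0 (adjusted p = 1.18e-05), 2.61 ± 0.132 in smeb-1 (adjusted p = 2.27e-07) and 2.52 ± 0.132 for smeb-2 (adjusted p = 2.32e-07), which are ratios of 3.58, 17.2 and 12.9 in mean FPKM.

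CCA1, the close relative of LHY, did not follow it. Its Col-0 libraries were at 3.46 and 3.45 FPKM without and 2.64 and 2.40 with salt. In smeb-1 they were at 1.01 and 0.983 without and 1.76 and 1.29 with salt, and in smeb-2 at 0.964 and 1.19 without and 1.75 and 1.40 with salt. The libraries of control and salt did not overlap in any line, but they moved down in Col-0 and up in both mutants. The log2 difference was −0.34 ± 0.128 in Col-0 (adjusted p = 0.0397), 0.33 ± 0.128 in smeb-1 (adjusted p = 0.0463) and 0.31 ± 0.128 for smeb-2 (adjusted p = 0.0573). These calls are marginal. The CCA1 call in Col-0 was lost in 9 of 19 alternatives, among them each removal of a Col-0 library (adjusted p between 0.0596 and 0.148) and of smeb-1 control 0 or 1 (0.0532 and 0.0533). That in smeb-1 was lost in 12 of 19, among them the removal of any control library (0.0552 to 0.136) or of smeb-1 salt 0 (0.275). CCA1 in smeb-2 passed in 4 of 19, with a pseudocount of 0.1 (0.0483), with library weights (0.0366) and without smeb-1 salt 0 (0.0459) or 1 (0.0453).

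PRR7 had the deepest fall among the 7 genes in each line. It was at 77.2 and 75.4 FPKM in Col-0 control and at 1.96 and 3.80 with salt. In smeb-1 it went from 64.1 and 66.1 to 1.77 and 1.40, and in smeb-2 from 67.3 and 71.4 to 2.17 and 1.83. Controls lay far above salt libraries in each line. The log2 difference of PRR7 was −4.36 ± 0.180 in Col-0 (adjusted p = 6.27e-08), −4.68 ± 0.180 in smeb-1 (adjusted p = 4.68e-08) and −4.55 ± 0.180 for smeb-2 (adjusted p = 4.46e-08), a 26.5-fold, 41.1-fold and 34.7-fold lower mean FPKM.

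PRR9 fell less, and least in the mutants. Its Col-0 libraries went from 4.58 and 5.08 FPKM to 0.712 and 1.32. In smeb-1 they went from 1.54 and 1.66 to 0.577 and 0.849, and in smeb-2 from 1.84 and 1.61 to 0.988 and 1.08. The salt libraries of each mutant overlapped those of Col-0 but not those of the other mutant, and the controls of Col-0 stood apart above those of the mutants. PRR9 differed by −1.55 ± 0.155 in Col-0 (adjusted p = 1.67e-05), −0.61 ± 0.155 in smeb-1 (adjusted p = 0.00723) and −0.42 ± 0.155 for smeb-2 (adjusted p = 0.0385). The PRR9 call in smeb-1 was lost without smeb-1 salt 0 (adjusted p = 0.0545). That in smeb-2 was lost in 10 of 19 alternatives, among them the removal of any control library or either smeb-2 salt library (0.0518 to 0.163).

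The coactivators LNK1 and LNK2 fell in all 3 lines. LNK2 went from 44.4 and 42.7 FPKM to 3.22 and 3.96 in Col-0. It went from 16.6 and 16.6 to 2.93 and 3.13 in smeb-1 and from 19.2 and 19.8 to 3.22 and 3.69 in smeb-2. The control levels of LNK2 differed between Col-0 and the mutants, and the salt levels nearly met. LNK2 differed by −3.28 ± 0.0916 in Col-0 (adjusted p = 6.73e-09), −2.13 ± 0.0916 in smeb-1 (adjusted p = 8.21e-08) and −2.21 ± 0.0916 for smeb-2 (adjusted p = 5.77e-08). LNK1 went from 24.1 and 24.7 to 4.95 and 4.0 in Col-0, from 16.5 and 17.1 to 3.28 and 3.99 in smeb-1, and from 15.9 and 16.1 to 4.80 and 4.71 in smeb-2. LNK1 differed by −2.22 ± 0.0995 in Col-0 (adjusted p = 1.02e-07), −1.94 ± 0.0995 in smeb-1 (adjusted p = 2.46e-07) and −1.57 ± 0.0995 for smeb-2 (adjusted p = 8.27e-07). Both genes share sequence with neighbours on the other strand. LNK1 overlaps AT5G64160 over 245 bases, and that gene was at 16.6 to 27 FPKM. LNK2 overlaps RPB5E over 93 bases, and RPB5E was at 0 to 0.233 FPKM. LNK2 also overlaps the long noncoding RNA AT3G08405 over 266 bases, for which no FPKM was used here. Strand use in counting is not given, so reads from the overlaps cannot be assigned.

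Of the 7 genes, 2 were higher and 5 lower with salt in Col-0, where 34.1% and 27.7% of the 20251 tested genes were called higher and lower. In smeb-1, 3 were higher and 4 lower (31% and 26.8% of tested genes), and in smeb-2, 2 were higher, 4 lower and 1 not called (32% and 27.7%). With calls this frequent, a call by itself sets no gene apart. By size, PRR7, LNK1, LNK2 and PRR9 were called lower by a log2 difference of at least 1 in Col-0, as were 6.94% of tested genes, and LHY and RVE8 higher by at least 1, as were 8.66%. The median log2 difference of the 7 genes was −1.55 in Col-0, −0.61 in smeb-1 and −0.42 for smeb-2, against 0.04, 0.03 and 0.03 over all tested genes.

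**Figure D3:**
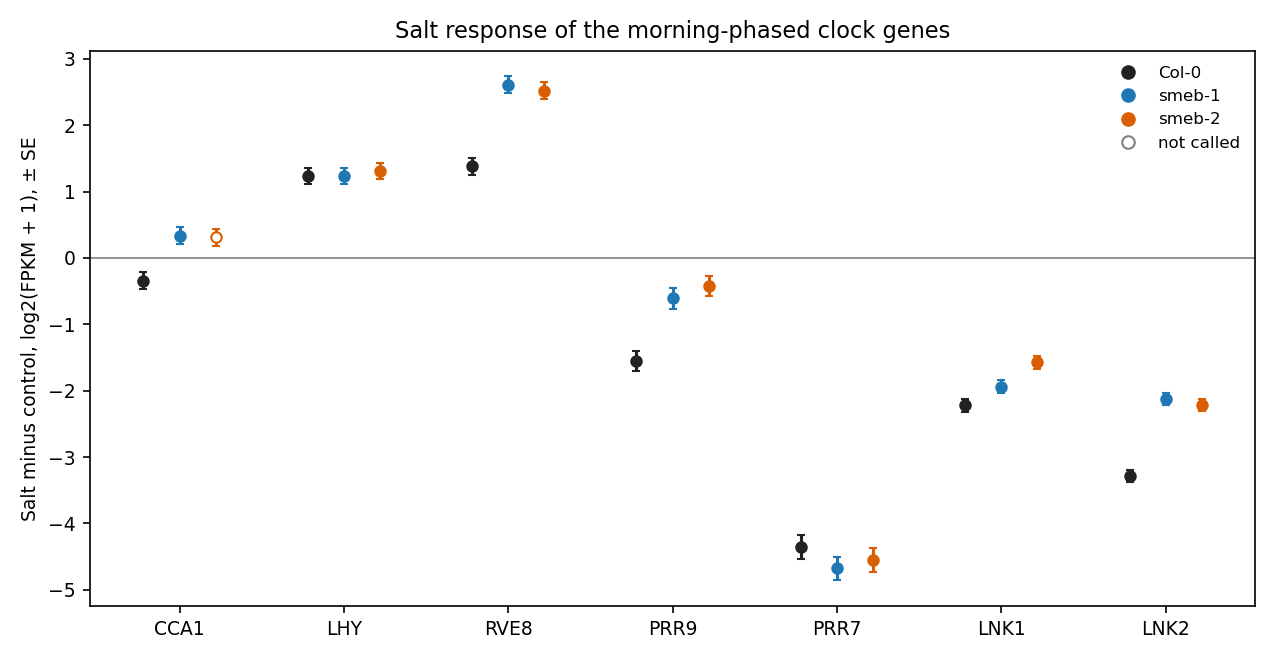
Difference between salt and control on the log2(FPKM + 1) scale, with the SE of the fit as bars, for each gene in Col-0, smeb-1 and smeb-2. Open points were not called (adjusted p of 0.05 or more). The points of smeb-1 and smeb-2 lie above those of Col-0 for RVE8, PRR9, LNK1, LNK2 and CCA1, and CCA1 is on opposite sides of 0.

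Without salt, 6 of the 7 genes were lower in the smeb lines than in Col-0 and 0 were higher, where 13% of tested genes were called lower and 11.6% higher. All 7 had every Col-0 control library above every smeb control library, as did 26.6% of tested genes. The control values of each gene are given above, and the smeb mean was used for the test. LNK2 differed by −1.23 ± 0.0793 (adjusted p = 1.35e-05), CCA1 by −1.13 ± 0.111 (adjusted p = 1.24e-04) and PRR9 by −1.13 ± 0.134 (adjusted p = 3.44e-04). CCA1 was 3.34-fold lower in mean FPKM, PRR9 2.90-fold, LNK2 2.41-fold and RVE8 3.0-fold. RVE8 differed by −0.79 ± 0.114 (adjusted p = 0.00102) and LNK1 by −0.55 ± 0.0861 (adjusted p = 0.00161). The difference of at least 1 seen for LNK2, CCA1 and PRR9 was found, in the lower direction, in 1.72% of tested genes.

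LHY and PRR7 were the least secure of the 7 in untreated seedlings. LHY differed by −0.34 ± 0.106 (adjusted p = 0.0411), 2.46-fold in mean FPKM. The LHY call was lost in 12 of the 18 alternatives that gave it a value, among them quantile normalization (0.0568) and the removal of any control library or any smeb salt library (0.0546 to 0.261), while a pseudocount of 0.1 kept it (−1.02, adjusted p = 0.0103). PRR7 was at −0.18 ± 0.156 (adjusted p = 0.447) and was not called, although its 2 Col-0 libraries, 77.2 and 75.4 FPKM, lay above the 4 smeb libraries, 64.1 to 71.4. PRR7 passed when the fit held the control groups alone (adjusted p = 0.0166).

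Each allele gave the same picture against Col-0 in control. In smeb-1, 5 of 7 genes were called lower (10.7% of tested genes), and in smeb-2, 5 of 7 (9.90%). They were CCA1, RVE8, PRR9, LNK1 and LNK2 in both. CCA1 differed by −1.16 ± 0.128 in smeb-1 (adjusted p = 3.53e-04) and −1.10 ± 0.128 for smeb-2 (adjusted p = 4.75e-04). LNK2 was at −1.34 ± 0.0916 (adjusted p = 3.41e-05) and −1.12 ± 0.0916 (adjusted p = 9.02e-05). LHY, at −0.30 ± 0.122 (adjusted p = 0.123) and −0.39 ± 0.122 (adjusted p = 0.0534), was not called in either allele. LNK1 in smeb-1 lost its call without smeb-1 control 0 (adjusted p = 0.0545), and RVE8 in smeb-2 without smeb-2 control 1 (adjusted p = 0.0548). Both comparisons share the Col-0 libraries.

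With salt the log2 difference between the lines was smaller in size than in control for most of the 7 genes, but larger for PRR7. In mean FPKM, CCA1 was 1.62-fold, PRR7 1.61-fold and LHY 1.36-fold lower in smeb, and RVE8 was 1.36-fold higher. PRR9, LNK2 and LNK1 were 1.17-fold, 1.11-fold and 1.07-fold lower. CCA1 was at −0.47 ± 0.111 in smeb against Col-0 (adjusted p = 0.0137) and RVE8 at 0.39 ± 0.114 (adjusted p = 0.0298), so 1 gene was called lower and 1 higher (14.9% and 12.8% of tested genes). LNK1 was at −0.08 ± 0.0861 (adjusted p = 0.511), LNK2 at −0.11 ± 0.0793 (adjusted p = 0.314) and PRR9 at −0.10 ± 0.134 (adjusted p = 0.613). Their libraries overlapped between the lines. LHY was at −0.31 ± 0.106 (adjusted p = 0.0551), with both Col-0 libraries above the 4 of smeb. It passed with no filter (0.0315) and under quantile normalization (0.0457). PRR7 was at −0.44 ± 0.156 (adjusted p = 0.0611) and passed without Col-0 salt 0 (−0.79, adjusted p = 2.49e-04), which leaves the higher Col-0 library of 3.80 FPKM alone in that group.

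By allele, CCA1 and PRR7 were called lower in smeb-1 with salt, 2 of 7 (15.1% of tested genes), and CCA1 in smeb-2, 1 of 7 (6.08%). CCA1 differed by −0.48 ± 0.128 in smeb-1 (adjusted p = 0.0212) and −0.45 ± 0.128 for smeb-2 (adjusted p = 0.0453), and PRR7 at −0.55 ± 0.180 in smeb-1 (adjusted p = 0.0480). The CCA1 call in smeb-1 was lost without smeb-1 salt 1 (adjusted p = 0.135) or without Col-0 salt 0 or 1 (0.0590 and 0.0504), that in smeb-2 without any Col-0, smeb-1 control or smeb-2 library (0.0619 to 0.207), and that of PRR7 without any library but Col-0 salt 0 (0.0627 to 0.221). These calls therefore hang on single libraries.

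The calls for the mean of both alleles in salt changed under several alternatives. CCA1 in salt was not called in a fit of the salt groups alone (adjusted p = 0.0679) or with library weights (0.117). RVE8 was lost in 8 of 19 alternatives, among them the pseudocount of 0.1 (0.114), library weights (0.189), and the removal of Col-0 salt 1 (0.210), smeb-1 salt 0 (0.0757) or smeb-2 salt 0 or 1 (0.0613 and 0.0684).

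**Figure D4:**
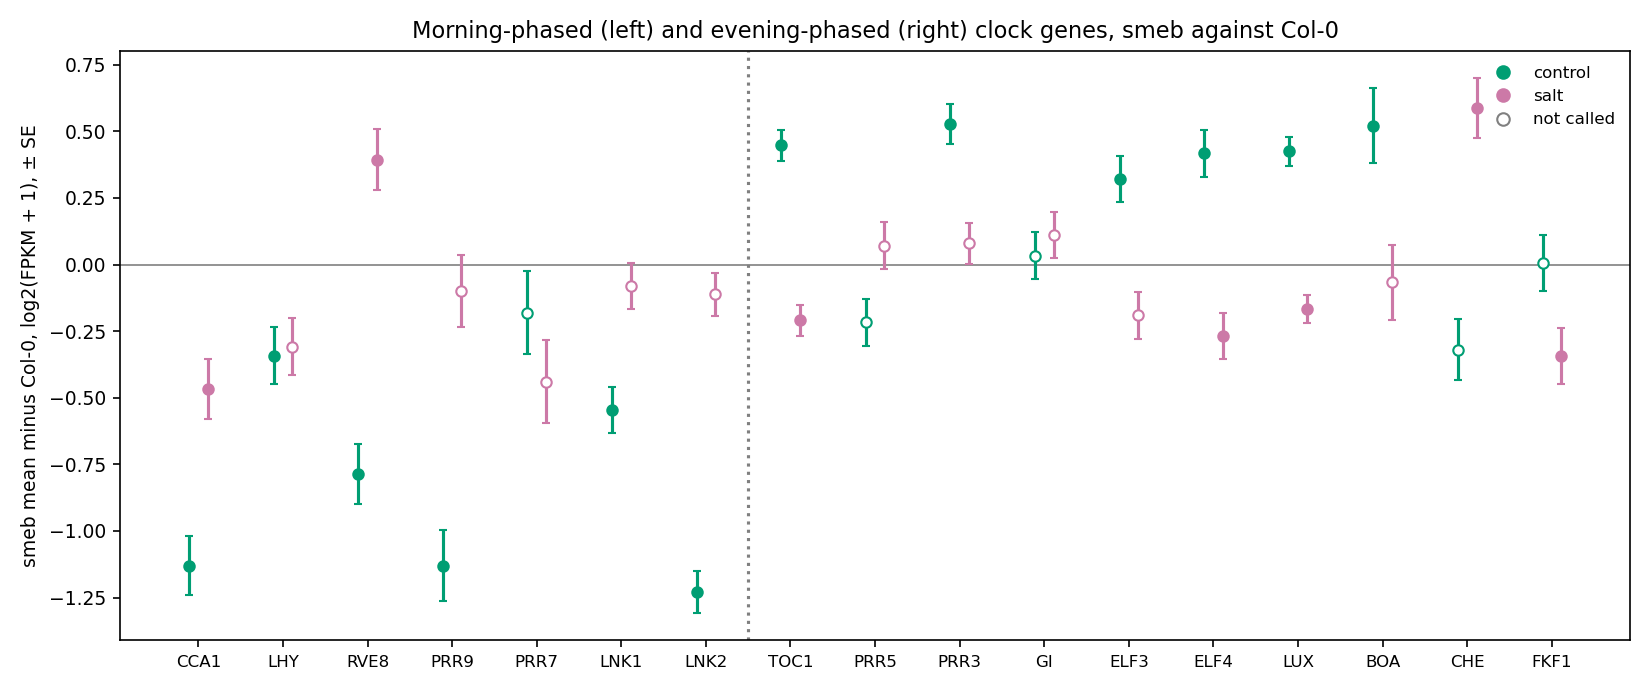
Difference between the mean of both smeb lines and Col-0 on the log2(FPKM + 1) scale, with the SE of the fit as bars, in control and in salt. Filled points were called. In control the 7 morning-phased genes lie below 0, while 6 of the 10 evening-phased genes were called higher, and the salt points lie nearer to 0 for most genes of either group.

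The salt response itself differed between smeb and Col-0 for 5 of the 7 genes, each with a higher value in smeb, where 6.18% of tested genes were called higher and 3.78% lower. RVE8 rose more in smeb, by 1.18 ± 0.161 (adjusted p = 0.00212). LNK2 and PRR9 fell less, by 1.12 ± 0.112 (adjusted p = 4.5e-04) and 1.03 ± 0.190 (adjusted p = 0.00947). CCA1, which had opposite signs in the lines, differed by 0.67 ± 0.156 (adjusted p = 0.0265), and LNK1 by 0.47 ± 0.122 (adjusted p = 0.0400). LHY was at 0.03 ± 0.150 (adjusted p = 0.907), or 0.59 ± 0.322 with a pseudocount of 0.1 (adjusted p = 0.278), and PRR7 at −0.26 ± 0.221 (adjusted p = 0.495). All these differences use the same control libraries as the comparison without salt, in which the smeb lines were lower.

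RVE8 and LNK2 kept this call in 18 of 18 alternatives. PRR9 lost it without Col-0 control 1 (adjusted p = 0.0557). CCA1 lost it in 8 of 18, with library weights (0.0815) and without Col-0 control 0 or 1, smeb-1 control 0 or 1, smeb-2 control 0, Col-0 salt 1 or smeb-2 salt 0 (0.0531 to 0.0987). LNK1 lost it in 14 of 18 (0.0555 to 0.149) and is the weakest. PRR7 passed without Col-0 salt 0 (−0.61, adjusted p = 0.00595).

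Between the alleles limma called 0 of the 7 genes in control and 0 of 7 in salt, where 0.104% and 0.286% of tested genes were called. With calls this rare over all genes, 0 of 7 does not set these genes apart. Before adjustment, 1 gene passed the 0.05 threshold in control, LNK2 (0.22 ± 0.0916, higher in smeb-2, adjusted p = 0.691), and 1 in salt, LNK1 (0.32 ± 0.0995, higher in smeb-2, adjusted p = 0.226). For all tested genes, the share passing before adjustment was not counted, so this does not set LNK2 or LNK1 apart. SmEb itself was 4.80-fold lower in smeb-2 than in smeb-1 without salt and 11.6-fold lower with salt.

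The levels can be ordered over the 6 groups. CCA1 was highest in Col-0 control, then Col-0 salt, and its 2 mutant salt groups overlapped, as did its 2 mutant control groups. LHY was highest in Col-0 salt, with overlapping mutant salt groups next and Col-0, smeb-1 and smeb-2 controls following apart. RVE8 was highest in the mutant salt groups, which overlapped. For PRR9, PRR7, LNK1 and LNK2 Col-0 control came first, the mutant controls came next, and the salt groups came last, with Col-0 salt and smeb-2 salt overlapping in each. Between its highest and lowest group PRR7 spanned 48.1-fold, RVE8 18.2-fold, LNK2 14.4-fold, LHY 14.3-fold, PRR9 6.77-fold, LNK1 6.72-fold and CCA1 3.47-fold.

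Among themselves, the genes fell into sets by profile over the 12 libraries, described by Pearson's r of log2(FPKM + 1), where points share libraries and the salt contrast dominates. LNK1 and LNK2 had r = 0.983 and PRR7 had 0.975 with LNK1. LHY and RVE8 had r = 0.949. CCA1 had 0.333 with LHY and 0.491 with PRR9, the highest of its pairs. Outside the 7, the nearest profiles by root mean square difference (RMS, log2) were CAT2 (0.134) and NIT1 (0.141) for RVE8, LHCA1 (0.169) and PIL6, also called PIF5, (0.179) for PRR7, and OXS2 (0.10) and AT1G67300 (0.106) for LHY. CAT2 is a catalase, NIT1 a nitrilase and LHCA1 a chlorophyll-binding antenna protein of photosystem I. Those of CCA1 were AT3G03790 (0.142) and NF-YA7 (0.150), those of PRR9 SERK4 (0.135) and PEN2 (0.148), those of LNK1 AT1G29500 (0.140) and AT3G53830 (0.176), and those of LNK2 AT4G38820 (0.192) and AT5G22580 (0.211).

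Several evening-phased clock genes differed in the other direction in untreated mutants. Of 10 listed, 6 were higher in smeb than in Col-0 without salt and 0 lower (11.6% and 13% of tested genes). Their median was 0.37 against −0.01 over all tested genes. The counts ran from 4 to 6 higher and from 0 to 2 lower over the alternatives. TOC1, a repressor of the PRR family, was at 46.4 and 46.2 FPKM in Col-0 control and between 58.9 and 67.3 in the mutants (0.45 ± 0.0588, adjusted p = 5.93e-04). LUX, the DNA-binding part of the evening complex, was at 62.5 and 61.4 and between 80.8 and 87 (0.43 ± 0.0534, adjusted p = 4.72e-04). PRR3, another pseudo-response regulator, was at 19.2 and 22.7 and between 28.7 and 32.8 (0.53 ± 0.0761, adjusted p = 9.93e-04). In each of these the smeb control libraries lay above those of Col-0. ELF4, a partner of LUX in that complex, was also higher (0.42 ± 0.0874, adjusted p = 0.00723), but not called without Col-0 control 0 (adjusted p = 0.0682). GI (0.03 ± 0.0872, adjusted p = 0.823), PRR5 (−0.22 ± 0.0890, adjusted p = 0.107) and CHE (−0.32 ± 0.113, adjusted p = 0.0686) were not called in untreated smeb.

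With salt the evening list had 1 gene higher (CHE, a TCP factor that represses CCA1, 0.59 ± 0.113, adjusted p = 0.00559) and 4 lower, the latter count running from 0 to 4 over the alternatives. Of all tested genes, 12.8% were called higher and 14.9% lower there. The salt response of 5 evening genes was lower in smeb (3 to 6 over the alternatives) and that of 1, CHE, higher. The shares of tested genes were 3.78% lower and 6.18% higher. TOC1 differed by −0.66 ± 0.0831 (adjusted p = 0.00145), LUX by −0.59 ± 0.0755 (adjusted p = 0.00147) and ELF4 by −0.69 ± 0.124 (adjusted p = 0.00869). Most of the morning-phased genes, by contrast, had a higher salt response in smeb. Both sets of differences use the same control libraries as the comparisons without salt, so they are not independent of those. In Col-0, 2 evening genes rose with salt and 6 fell (6 to 8 over the alternatives), GI with a difference of −3.43 ± 0.101 (adjusted p = 8.9e-09) and CHE of −3.15 ± 0.131 (adjusted p = 6.33e-08), whereas ELF4 rose by 1.27 ± 0.101 (adjusted p = 3.61e-06). In smeb-1 and smeb-2 alike, 1 rose and 8 fell. With salt in Col-0, 34.1% of tested genes were called higher and 27.7% lower. These shares were 31% and 26.8% in smeb-1 and 32% and 27.7% in smeb-2.

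Relatives of the 7 genes went both ways. Of 9 other RVE and LNK genes, 5 rose and 3 fell with salt in Col-0 (34.1% and 27.7% of tested genes). Among the 5, RVE3 passed the filter through its salt libraries alone, so its rise is not independent support. In smeb without salt 1 of the 9 was higher and 5 lower (11.6% and 13% of tested genes), the latter 3 to 6 over the alternatives. RVE2, a MYB factor, rose with salt by 4.18 ± 0.0838 in Col-0 (adjusted p = 1.2e-09) and was higher in untreated smeb by 0.81 ± 0.0726 (adjusted p = 7.8e-05). LNK3 was lower in untreated smeb, at −1.07 ± 0.130 (adjusted p = 3.82e-04), as was RVE4, a close relative of RVE8, at −0.47 ± 0.0788 (adjusted p = 0.00224). LNK3 and RVE4 thus shared the direction of LNK1, LNK2 and RVE8 there, while RVE2 did not.

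Of 17 clock outputs, 7 rose and 9 fell with salt in Col-0 (34.1% and 27.7% of tested genes). In smeb without salt 2 were higher and 6 lower (11.6% and 13% of tested genes). COL1, a CONSTANS-like factor, was lower in untreated smeb, at −1.38 ± 0.187 (adjusted p = 7.24e-04), as were CDF3 at −0.90 ± 0.0811 (adjusted p = 7.8e-05) and CAT2 at −0.89 ± 0.0661 (adjusted p = 2.86e-05). COR27 and COR28, cold-regulated genes that the clock controls, were higher by 0.82 ± 0.145 (adjusted p = 0.00304) and 0.79 ± 0.119 (adjusted p = 0.00123). Among 10 modulators of the clock, 1 was higher and 3 lower in untreated smeb (0 to 3 lower over the alternatives), beside 11.6% and 13% of tested genes. The higher one, the histone demethylase JMJD5, was at 1.09 ± 0.0963 (adjusted p = 7.06e-05).

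Of 7 splicing factors known to affect the clock, limma called 0 in untreated smeb against Col-0 (0 to 2 lower over the alternatives). Of all tested genes, 11.6% were called higher and 13% lower in untreated smeb. Before adjustment, 2 of them, GEMIN2 and LSM4, passed the 0.05 threshold there. The share of all tested genes that passed before adjustment was not counted, so this does not set the 2 apart. The authors' deposited tables of splicing events, with 137 events called SmEb dependent and 208 called SmEb independent, listed 0 events in the 7 morning-phased genes. Their events lay in 131 and 199 genes, beside 33559 genes in the expression table, so 0 of 7 does not set these genes apart. The authors' deposited table of dependent events did list a cassette exon of GEMIN2, a snRNP assembly factor, at chr1:20299611-20299689 (FDR = 5.04e-05) and an alternative start of GRP8, a clock-controlled RNA-binding protein, at chr4:18274693-18274773 (FDR listed as 0). Per its headers, that table sets smeb with salt against Col-0. In expression with salt, smeb against Col-0 gave GEMIN2 −0.14 ± 0.0612 (adjusted p = 0.120) and GRP8 0.22 ± 0.0965 (adjusted p = 0.122), and neither was called. In untreated seedlings GEMIN2 was at −0.18 ± 0.0612 (adjusted p = 0.0647) and GRP8 at −0.21 ± 0.0965 (adjusted p = 0.149), also not called.

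Markers of organs moved with the groups. The summed FPKM of 8 root markers was 81.5 to 89.7 in Col-0 control libraries and 111 to 124 in smeb controls. There 2 of 8 were called higher in smeb (0 to 4 over the alternatives) and 0 lower, beside 11.6% and 13% of tested genes. The largest part of that gap was PRP3, at a mean of 22.3 FPKM in Col-0 control, 42.8 in smeb-1 and 45 in smeb-2. CASP1 was at 20.9, 15.4 and 24.9 in these controls. The sum of the 8 root markers was 48.1 to 50.3 in Col-0 with salt and 52.1 to 71.3 in smeb with salt. With salt 5 of 8 were called higher in smeb and 1 lower, beside 12.8% and 14.9% of tested genes. The count of higher ones ran from 3 to 5 over the alternatives. Their median log2 difference was 0.54 against −0.03 over all tested genes. With salt in Col-0, 2 root markers were called higher and 5 lower (34.1% and 27.7% of tested genes). In the difference in salt response 1 was higher and 1 lower (6.18% and 3.78%). Of 8 leaf and shoot markers, 1 was called higher in smeb without salt (11.6% of tested genes) and 2 with salt (12.8%). In the difference in salt response 0 were higher (6.18%), and 0 of these markers were lower in any of the 3 comparisons. RBCS1A, the Rubisco small subunit and the most abundant of them, was higher in smeb both without salt (0.41 ± 0.0975, adjusted p = 0.0134) and with it (0.59 ± 0.0975, adjusted p = 0.00273). Its call without salt was lost without Col-0 control 0 (adjusted p = 0.106) or Col-0 control 1 (adjusted p = 0.0643), both calls were lost with no filter on low values, and that with salt under quantile normalization. The other leaf and shoot markers summed to 117 to 123 FPKM in controls of the 3 lines and 133 to 159 with salt. In that sum CER1, an enzyme of wax synthesis, rose with salt in Col-0 (1.07 ± 0.130, adjusted p = 5.97e-05), while the leaf polarity factors FIL (−0.69 ± 0.0943, adjusted p = 1.33e-04) and YAB5 (−0.60 ± 0.102, adjusted p = 5.9e-04) fell. 0 markers of either list were at 0. The part of organ makeup in the differences above was not tested, and in whole seedlings fewer cells of a type and less RNA per cell cannot be told apart.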

How the data were processed

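The authors deposited FPKM values, which were used unchanged. Per the submitters' processing notes, the tools were Trimmomatic 0.32 for trimming and TopHat2 2.0.13 for alignment, with TAIR10 as the build. For the FPKM step, the tool, annotation, strand setting and read totals were not given in the sources used here. Such values are relative to each library's total, so that large changes in abundant genes shift the others. The splicing tables give the authors' deposited p-value and FDR for each event. The p-values were not recomputed.

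The genes and lists were chosen with earlier results of these data known. The 20251 genes that reached an FPKM of 1 in 2 or more of the 12 libraries entered limma 3.58.1 (trend, R 4.3.3) as log2(FPKM + 1), with 6 group means, 6 residual degrees of freedom and Benjamini-Hochberg adjustment over all tested genes within each of 12 comparisons, and were called at an adjusted p under 0.05. ± is the SE of the fit. Log2(FPKM + 1) understates changes of low genes. Zeros may be failed estimates: 11 genes whose median FPKM was 5 or more had one. Of each further list, up to 4 called genes a direction with the largest difference could be named, and genes not called were named after their values were seen, as were ELF4 in untreated smeb and the leaf markers. 32817 gene identifiers matched TAIR10.1, including all 7. Of 344 splicing events whose gene is annotated there, 330 lay inside it. Relative depth was read from the commonest ratio between libraries over genes with a mean FPKM under 0.3. The column digit was not tied to the replicate numbers of the labels. The alternatives left out each library in turn, weighted the libraries, blocked on the column digit as replicate, fitted only the groups compared, dropped the filter, set the pseudocount to 0.1, or rescaled by median of ratios or quantiles.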

Additional observations from a re-analysis of the deposited data

Results flagged for a closer look

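The salt response differed between the smeb lines and Col-0 for 5 of the 7 genes, by the test of that difference in the fit of all groups (smeb minus Col-0, log2 scale). RVE8 differed by 1.18 (adjusted p = 0.00212), LNK2 by 1.12 (adjusted p = 4.5e-04), PRR9 by 1.03 (adjusted p = 0.00947), CCA1 by 0.665 (adjusted p = 0.0265) and LNK1 by 0.466 (adjusted p = 0.040). In each, the smeb control libraries were lower than those of Col-0. Harvest time of the controls and organ makeup were not tested as parts of these differences.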

How the results depend on the processing

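Of 1582 values recomputed for the 7 genes over 12 comparisons, 1422 kept direction and side of the threshold, 116 lost the call, 24 gained one and 20 changed sign. The salt calls of LHY, RVE8, PRR7, LNK1 and LNK2 in each line, and the calls of CCA1, RVE8, PRR9, LNK1 and LNK2 in untreated smeb, held in 19 of 19 alternatives. Of these genes, LHY passed the filter through its salt libraries alone. The cause of the changes that follow was not tested. Low levels limit LHY in controls, RVE8 in smeb controls and PRR9 with salt, where some or all libraries were under 1 FPKM.

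With smeb against Col-0 in salt, 2380 genes were called in a fit of only the groups compared and 1837 with library weights (5617 in all groups), of the 7 genes 0 and 0, and 1 with a pseudocount of 0.1. For the difference in salt response 1176 genes passed with no filter, 4 of the 7 among them, and 1225 with weights, 3 of the 7 among them (2016 in the fit as reported). Weights gave 6061 genes for smeb-1 and 5824 for smeb-2 in control. In salt, smeb-1 had 646 (only groups compared) and 2582 (weights), with 1 of the 7 without a filter, under median of ratios and under the replicate block and 0 in the other pair of settings. In salt, smeb-2 had 1603 (no filter), 51 (only groups compared) and 849 (weights), with 2 of the 7 under quantiles and 0 under the other 6 settings, the block included. Between the alleles, 63, 11 and 79 genes passed in control (only groups compared, replicate block, weights; 21 in all groups) and 202 and 259 in salt (only groups compared, weights; 58 in all groups).

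Leaving out 1 library gave 2385 (Col-0 control 1) to 6535 (Col-0 salt 1) genes for smeb in control and 2982 (Col-0 salt 1) to 7918 (Col-0 salt 0) in salt, with 1 to 3 of the 7 in salt. The difference in salt response had 815 (without Col-0 control 1) to 5006 (without Col-0 salt 0) genes and 2 to 6 of the 7. In control the range was 1625 to 5582 for smeb-1 and 1612 to 5293 for smeb-2. In salt it was 2805 to 8002 for smeb-1, with 0 to 4 of the 7, and 695 to 6162 for smeb-2, with 0 to 2. Between the alleles it was 5 to 59 in control and 4 to 610 in salt.

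No clear pairing of the libraries by column digit was seen: 2 of 15 correlations of their deviations exceeded 0.1 (range −0.125 to 0.112). Weak correlations cannot show that the libraries were unpaired. Under the replicate block LHY in untreated smeb had an adjusted p of 0.0579 and LNK1 in the difference in salt response 0.0555.

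The 20 values that changed sign were not called in either setting. In salt, smeb against Col-0 ranged over the left-out libraries from −0.319 to 0.122 for PRR9, −0.205 to 0.0442 for LNK1 and −0.228 to 0.00355 for LNK2. The difference in salt response ranged from −0.0477 to 0.115 for LHY (−0.0394 without Col-0 control 1, and −0.0135 under quantiles) and from −0.609 to 0.0908 for PRR7. For smeb-2 in salt the ranges were −0.194 to 0.248 for PRR9 (−0.00512 without smeb-2 salt 1, and −0.0152 under quantiles), −0.683 to 0.0168 for PRR7, −0.0475 to 0.202 for LNK1 and −0.157 to 0.0741 for LNK2 (0.0353 without smeb-2 salt 0). The ends of these ranges came from Col-0 salt 0 or 1. Between the alleles CCA1 ranged from −0.0228 to 0.131 in control and from −0.101 to 0.167 in salt (−0.0651 without smeb-2 salt 0), LHY in salt from −0.0609 to 0.0312 (0.0208 without smeb-1 salt 0) and RVE8 in salt from −0.0268 to 0.172. Among other named genes, GI in untreated smeb, not called, ranged from −0.0293 (without Col-0 control 1) to 0.0973 (without Col-0 control 0).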
